A study of Homo sapiens with 12 samples.

Results

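Desmosome genes were examined in MCF-12A cells, an immortal but non-tumorigenic line of human mammary epithelium, that had received TGFbeta1 or served as controls. The 10 genes were chosen by symbol, with earlier results of these data known. They are the cadherins DSG2, DSG3, DSC2 and DSC3, the armadillo proteins JUP, PKP1, PKP2 and PKP3, the plakin DSP, and the membrane protein PERP. All 10 are listed in both deposited tables, among 13407 genes in the first and 11504 in the second. They account for 28 of 44112 transcripts in the first table and 22 of 29204 in the second. There were 6 TGFbeta1 and 6 control libraries, 3 of each in a first set (replicates 1 to 3) and 3 in a second (replicates 4 to 6), and each set has its own table. TGFbeta1 is a secreted cytokine used to induce an epithelial-mesenchymal transition, and the controls received vehicle. All libraries come from this 1 cultured line, and the labels used here give no dose or duration. Nor do they state that replicates were separate cultures, so the p-values cover the spread between libraries, which may be technical.

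Desmosomes are spot-like junctions that join neighbouring epithelial cells and anchor their intermediate filaments. Desmogleins and desmocollins bind across the gap between cells, plakoglobin and the plakophilins hold their tails in the plaque, and desmoplakin links the plaque to keratin. In mammary gland they connect both basal and luminal epithelial cells, and their loss or remodelling is a described part of the epithelial-mesenchymal transition.

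Levels are in FPKM, a fragment count divided by transcript length and by library size, and transcripts were added up per gene. Depth is unknown, since the tables hold no counts. FPKM per library summed to 291801.6 to 293787.5 with TGFbeta1 and 307852.2 to 318269.5 in controls (first set), and to 343461.2 to 358432.6 with TGFbeta1 and 338968.0 to 353706.5 in controls (second set). Markers of basal-like epithelium, all 7 listed, summed to 2214 to 2265 FPKM with TGFbeta1 and 2283 to 3015 FPKM in controls of the first set, and to 1573 to 1719 FPKM with TGFbeta1 and 1504 to 1739.9 FPKM in controls of the second. These sums hold members that moved apart in the first set, where LAMB3 and CDH3 rose and KRT5 fell. Of 4 general epithelial markers, 2 fell with TGFbeta1 in the first set and 0 rose, where 11.9% of all genes fell and 9.0% rose. EPCAM, an epithelial adhesion molecule, had 32.7, 32.3 and 35.6 FPKM with TGFbeta1, against 71, 71.4 and 65.7 FPKM in controls (adjusted p = 0.000638, limma), without overlap. KRT18 had 156 ± 28.4 FPKM with TGFbeta1 and 261 ± 35.3 FPKM in controls (SD, n = 3 each, adjusted p = 0.0255). CDH1 did not overlap between the groups but did not pass, and KRT8 overlapped. The 4 summed to 272 to 514 FPKM with TGFbeta1 and 415 to 501 FPKM in controls of the first set, and to 354 to 396 FPKM with TGFbeta1 and 304 to 336 FPKM in controls of the second. Of 7 fibroblast markers, 2 are listed in the first set, and they summed to 13.7 to 16.9 FPKM with TGFbeta1 and 1.56 to 1.84 FPKM in controls. COL1A1 carried most of this sum, at 12.2 ± 1.24 FPKM with TGFbeta1 and 1.1 ± 0.124 FPKM in controls. DCN had 2.78 ± 0.985 FPKM with TGFbeta1 and 0.594 ± 0.0988 FPKM in controls (SD, n = 3 each). The second set lists 3 of the 7, at a sum of 12 to 15.7 FPKM with TGFbeta1 and 28.6 to 32.6 FPKM in controls. That sum is mostly DCN, which fell, with 12.4 ± 1.82 FPKM with TGFbeta1 and 28.6 ± 1.97 FPKM in controls (adjusted p = 0.038, limma). COL1A1 was higher with TGFbeta1 (0.713 against 0.439 FPKM) and PDGFRA lower (0.692 against 1.31 FPKM), both too low to be tested. COL1A2, COL3A1, LUM and PDGFRB are in neither table. Of 5 leukocyte markers, CD14 and LYZ are listed in the first set, with LYZ at 0.12 FPKM or less, and CD14 alone in the second. They summed to 0.508 to 0.724 FPKM with TGFbeta1 and 2.65 to 3.29 FPKM in controls of the first set, and to 8.3 to 8.95 FPKM with TGFbeta1 and 4.66 to 6.59 FPKM in controls of the second, with PTPRC and CD3E in neither table. No endothelial marker of 3 is listed. The part of these markers in the results below was not tested.

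The agent's own response differed between the sets. Of 12 genes known to respond to TGFbeta, 11 were tested in each set. All 11 rose in the first set (median log2 change 2.23), where 9.0% of all genes rose. None passed the test in the second (median -0.12), where 0.321% of all genes did. There 5 of the 11 had an unadjusted p under 0.05 (limma), against 11.2% of all genes. TGFBI, FN1, PMEPA1 and LTBP2 were lower with TGFbeta1 (log2 change -1.42, -0.74, -0.43 and -0.35), without overlap, as were 9.62% of all genes. BHLHE40 was higher (0.23), also without overlap, as were 9.71%. FN1, the matrix protein fibronectin, had 214 ± 13.2 FPKM with TGFbeta1 and 26.7 ± 2.43 FPKM in controls of the first set, but 243 ± 61.9 FPKM with TGFbeta1 and 397 ± 15.9 FPKM in controls of the second (SD, n = 3 each, adjusted p = 0.226 in the second set, limma). ITGB6, PMEPA1 and SKIL also rose in the first set. The desmosome genes of the second set are thus described in libraries where this response was not detected by the test.

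The 4 cadherin genes lie together on chromosome 18. On hg19 they run in the order DSC3 (28569974 to 28622781, minus strand), DSC2 (28638806 to 28682378, minus), DSG3 (29027758 to 29058665, plus) and DSG2 (29078006 to 29128971, plus). The gap between DSC3 and DSC2 is 16.0 kb, that between DSC2 and DSG3 345.4 kb, and that between DSG3 and DSG2 19.3 kb. The others are dispersed: DSP on chromosome 6 (7541808 to 7586950, plus), PERP on chromosome 6 (138409642 to 138428648, minus), PKP1 on chromosome 1 (201252580 to 201302121, plus), PKP2 on chromosome 12 (32943679 to 33049774, minus), PKP3 on chromosome 11 (393463 to 404908, plus) and JUP on chromosome 17 (39910856 to 39943017, minus).

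Promoters of 8 of the 10 genes matched RefSeq entries of GRCh38.p14, each a window of 300 bases from 250 before to 50 after the start. Those of DSP, DSG3 and PERP, which fell in the first set, are shown with that of DSG2, which neighbours DSG3 and did not fall. Capitals mark CACCTG on either strand (the E-box bound by SNAI and ZEB factors) and TGANTCA, the AP-1 site. The windows are DSP chr6:7541421-7541720 (plus), DSG3 chr18:31447491-31447790 (plus), PERP chr6:138107370-138107669 (minus) and DSG2 chr18:31497927-31498226 (plus).
DSP promoter: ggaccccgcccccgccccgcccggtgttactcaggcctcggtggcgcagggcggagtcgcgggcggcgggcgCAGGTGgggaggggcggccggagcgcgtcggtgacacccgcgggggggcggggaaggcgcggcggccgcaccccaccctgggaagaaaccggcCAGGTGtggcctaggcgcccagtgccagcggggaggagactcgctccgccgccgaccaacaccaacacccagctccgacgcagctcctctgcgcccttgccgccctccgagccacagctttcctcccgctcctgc
DSG3 promoter: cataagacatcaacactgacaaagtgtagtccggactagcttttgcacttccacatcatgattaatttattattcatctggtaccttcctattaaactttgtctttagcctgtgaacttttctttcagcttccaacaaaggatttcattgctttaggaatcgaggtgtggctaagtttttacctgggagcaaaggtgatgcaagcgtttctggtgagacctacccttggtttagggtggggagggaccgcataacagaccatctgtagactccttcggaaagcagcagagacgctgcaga
PERP promoter: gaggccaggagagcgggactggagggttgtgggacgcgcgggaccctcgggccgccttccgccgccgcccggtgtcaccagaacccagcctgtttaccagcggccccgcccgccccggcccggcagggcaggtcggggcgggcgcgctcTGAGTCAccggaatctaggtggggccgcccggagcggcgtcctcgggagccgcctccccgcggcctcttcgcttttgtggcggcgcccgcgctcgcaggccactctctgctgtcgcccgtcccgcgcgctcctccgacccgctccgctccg
DSG2 promoter: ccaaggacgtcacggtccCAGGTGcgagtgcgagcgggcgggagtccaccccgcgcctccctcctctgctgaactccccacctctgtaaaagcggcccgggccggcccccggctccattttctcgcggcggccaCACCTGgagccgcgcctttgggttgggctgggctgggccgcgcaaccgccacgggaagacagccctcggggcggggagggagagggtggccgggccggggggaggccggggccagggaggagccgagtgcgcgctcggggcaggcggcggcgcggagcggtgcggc
CACCTG occurs 178 and 85 bases before the start of DSP and 232 and 116 bases before that of DSG2. It is also in 1 of 2 entries of JUP and 1 of 2 of DSC2, and 20.6% of all 35116 promoter entries hold it. The AP-1 letters occur 101 bases before the start of PERP, and in 7.71% of all entries. The palindromes AACCGGTT, bound by GRHL factors, and GTCTAGAC, bound by SMAD factors, were in no member's window, and 0.134% and 0.202% of all entries hold them. The DSG3 window is 44% G or C, and 18.8% of all entries have less. DSP and PERP are at 77% and DSG2 at 76.7%, above 93.6% and 93.1% of all entries. A match is a description of letters, and of the 4 members with CACCTG, DSP fell in the first set while JUP, DSC2 and DSG2 did not pass the test.

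Among the desmogleins, DSG3 fell with TGFbeta1 in the first set, and DSG2 did not pass the test. DSG3, the main desmoglein of the basal layers of stratified epithelia, had 15.6, 16 and 15.2 FPKM with TGFbeta1, against 32.9, 31.3 and 27.6 FPKM in controls. The groups did not overlap. Its log2 change on the log2(FPKM + 1) scale was -0.92 (SE 0.086, 95% interval -1.13 to -0.71, adjusted p = 0.00166, limma), and the TGFbeta1 mean was 0.511 of the control mean. DSG2, the widely expressed desmoglein, had 55.5, 55.5 and 58.9 FPKM with TGFbeta1, against 50.7, 50.9 and 51.8 FPKM in controls. Every TGFbeta1 library stood above every control, by little: the log2 change was 0.14 (SE 0.057, interval 0.003 to 0.28, adjusted p = 0.136). Under an equal FPKM sum per library DSG2 was called, at 0.23 (adjusted p = 0.0435). In bulk RNA, fewer cells that express a gene and less RNA per cell cannot be told apart.

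The share of DSG3 in the summed FPKM of DSG2 and DSG3 was 22, 22.4 and 20.6% with TGFbeta1, against 39.4, 38 and 34.7% in controls of the first set. The groups did not overlap, and the means were 21.6 ± 0.955% with TGFbeta1 and 37.4 ± 2.39% in controls (SD, n = 3 each). Second-set shares were 52.9 ± 0.437% with TGFbeta1 and 52.3 ± 2.06% in controls, and the groups overlapped.

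Neither desmocollin passed the test. DSC2, the widely expressed desmocollin, had 7.18, 7.15 and 7.99 FPKM with TGFbeta1, against 6.59, 10.3 and 8.57 FPKM in controls of the first set (log2 change -0.15, interval -0.54 to 0.24, adjusted p = 0.548). Single controls move this value, which is -0.30 without control replicate 1 and -0.015 without control replicate 2. DSC3, its counterpart of basal layers, had 8.42, 9.66 and 14.9 FPKM with TGFbeta1, against 9.94, 10.6 and 8.64 FPKM in controls (log2 change 0.13, interval -0.40 to 0.65, adjusted p = 0.714). TGFbeta1 replicate 3 is high for DSC3, and without it the log2 change is -0.094, while without TGFbeta1 replicate 1 it is 0.28 and without control replicate 3 it is 0.052. In that library the transcript DSC3-001 stands at 11.2 FPKM, against 4.28 to 4.82 FPKM in the other TGFbeta1 libraries and 5.84 to 6.13 FPKM in controls. The intervals allow changes of either sign for both genes.

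DSP, desmoplakin, fell in the first set. It had 92.3, 92 and 92.8 FPKM with TGFbeta1, against 153, 151 and 145 FPKM in controls. The TGFbeta1 libraries lie within 1 FPKM of each other, far under the lowest control. The log2 change was -0.69 (SE 0.051, interval -0.82 to -0.57, adjusted p = 0.000768), with a TGFbeta1 mean of 0.616 of the control mean.

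DSP is listed as 2 transcripts: DSP-001, with 2871 codons, and DSP-002, with 2272, which encode desmoplakin I and II. DSP-002 lacks 1797 coding bases (599 codons). Counted to the first base that differs, 3583 coding bases are shared before this stretch and 3233 after it. The splice join itself was not located and may lie earlier, since bases alike in both forms cannot place it. In GENCODE 29 on GRCh38, the sequences around this point run as follows, with capitals from the first base that differs.
DSP-001: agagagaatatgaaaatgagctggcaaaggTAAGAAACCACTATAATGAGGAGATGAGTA
DSP-002: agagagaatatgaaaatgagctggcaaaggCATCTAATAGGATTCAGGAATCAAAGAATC
DSP-001 had 52.5 ± 0.917 FPKM with TGFbeta1 and 85.1 ± 4.35 FPKM in controls, and DSP-002 had 39.9 ± 1.22 FPKM with TGFbeta1 and 64.7 ± 0.456 FPKM in controls (SD, n = 3 each). Both fell by 0.69 on the log2 scale (adjusted p = 0.0101 and 0.00867). DSP-001 made up 57.9, 57 and 55.6% of DSP with TGFbeta1 and 58, 57 and 55.4% in controls, so the balance of the forms overlapped between the groups in the first set. Its second-set share was 45.2 ± 2.22% with TGFbeta1 and 44 ± 5.3% in controls.

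Of the plaque's armadillo proteins, PKP3 fell and the others did not pass the test in the first set. PKP3, the plakophilin found in most epithelia, had 33.5, 32.9 and 35.8 FPKM with TGFbeta1, against 50.6, 43.7 and 52.7 FPKM in controls. The groups did not overlap (log2 change -0.51, SE 0.091, interval -0.73 to -0.28, adjusted p = 0.0152). The call was lost without TGFbeta1 replicate 1, TGFbeta1 replicate 2 or control replicate 1, at adjusted p of 0.0562, 0.0576 and 0.055. PKP1, the plakophilin of stratified epithelia, had 77.3, 76.5 and 75.2 FPKM with TGFbeta1, against 87.3, 84.3 and 91.3 FPKM in controls. Those groups did not overlap either, with a log2 change of -0.20 (interval -0.34 to -0.054, adjusted p = 0.0645). PKP2, the plakophilin of heart and simple epithelia, had 7.87, 4.57 and 8.51 FPKM with TGFbeta1, against 10.2, 18.6 and 21.2 FPKM in controls. Its controls spread widely, with replicate 1 low. The log2 change was -1.13 (interval -1.95 to -0.30, adjusted p = 0.0669), and without control replicate 1 it was -1.43 (adjusted p = 0.0352). JUP, plakoglobin, which also acts in adherens junctions, had 169.7, 175 and 143 FPKM with TGFbeta1, against 174, 175 and 201 FPKM in controls (log2 change -0.18, interval -0.44 to 0.09, adjusted p = 0.302). The JUP groups overlapped, and the change was -0.084 without TGFbeta1 replicate 3 and -0.11 without control replicate 3.

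PKP1 made up 65.1, 67.2 and 62.9% of the summed plakophilin FPKM with TGFbeta1, against 58.9, 57.5 and 55.3% in controls of the first set. The groups did not overlap. PKP2 made up 5.92 ± 1.67% with TGFbeta1 and 10.8 ± 3.41% in controls, and PKP3 29 ± 0.875% with TGFbeta1 and 32 ± 2.2% in controls (SD, n = 3 each). PKP1 in the second set was 47.5 ± 1.35% of the plakophilins with TGFbeta1 and 49.8 ± 1.36% in controls.

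PERP, a p63 target that in mice is needed for desmosomes of stratified epithelia, fell in the first set. It had 202, 194 and 203 FPKM with TGFbeta1, against 259, 259.9 and 231 FPKM in controls. The groups did not overlap (log2 change -0.32, SE 0.066, interval -0.49 to -0.16, adjusted p = 0.0229). This was the least secure of the 4 calls: under an equal FPKM sum per library it was -0.23 (adjusted p = 0.0884), under quantile normalisation -0.24 (adjusted p = 0.0733), and it was also lost without any 1 library but control replicate 3 (adjusted p 0.0588 to 0.0809). With the replicate number as a block the adjusted p was 0.0784 (limma). The fall kept its sign in all of these.

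**Figure D1:**
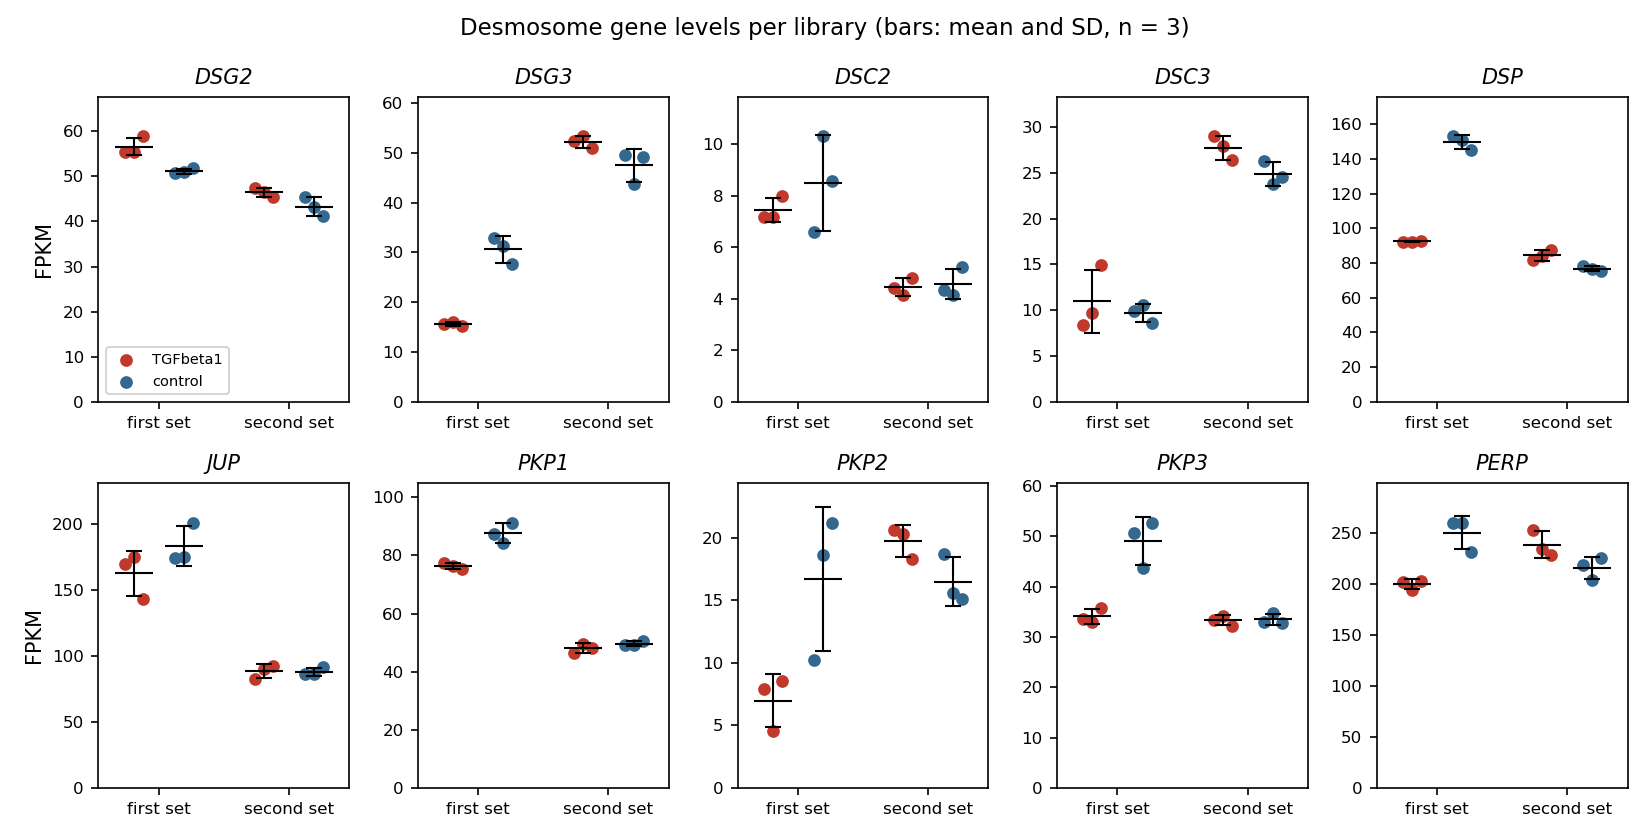
FPKM of the 10 desmosome genes in each library of both sets, TGFbeta1 left of control, with points for libraries and bars for mean and SD (n = 3). In the first set DSP, DSG3, PKP1, PKP2, PKP3 and PERP are lower with TGFbeta1 and DSG2 is higher, without overlap, as were 25.1% and 18.2% of all genes. Of these, DSP, DSG3, PKP3 and PERP were called. DSG3 is at 15.2 to 16 FPKM with TGFbeta1 and 27.6 to 32.9 FPKM in controls of the first set.

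In all, 4 of 10 desmosome genes fell in the first set and 0 rose. Of all 10454 genes tested 20.9% were called, 11.9% lower and 9.0% higher. The members were chosen with earlier results of these data known, so their larger share of falls is a description and not independent support. The count was 2 without TGFbeta1 replicate 1 and 2 without TGFbeta1 replicate 2, where 1365 and 1354 genes were called over all, against 2186. Under an equal FPKM sum per library, calls over all genes were 1164 higher and 855 lower, against 941 and 1245 here. All 10 passed the filter on low values in both sets. The 10 had a median log2 change of -0.26, against -0.055 for all genes tested, and 8 of 10 means were lower with TGFbeta1, where 56.4% of all genes had an estimate below 0. Groups did not overlap for 6 members that were lower with TGFbeta1 and for 1 that was higher, against 25.1% and 18.2% of all genes. An unadjusted p under 0.05 was found for 7 members, where 35.0% of all genes had one. Summed over the 10 genes, FPKM was 669, 664 and 655 with TGFbeta1, against 834, 836 and 839.6 in controls, without overlap.

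In the second set none of the 10 was called, and the estimates leaned the other way. Of all 10579 genes tested there, 0.321% were called, 0.17% higher and 0.151% lower. DSP had 81.6, 83.8 and 87.7 FPKM with TGFbeta1, against 78, 76.5 and 75.2 FPKM in controls (log2 change 0.14, interval 0.017 to 0.26, adjusted p = 0.388). The groups did not overlap, and all TGFbeta1 libraries were higher. PKP2 had 20.6, 20.3 and 18.3 FPKM with TGFbeta1, against 18.7, 15.6 and 15.1 FPKM in controls (log2 change 0.25, interval 0.0032 to 0.50, adjusted p = 0.438). DSP and PKP2 were the 2 members with an unadjusted p under 0.05, where 11.2% of all genes had one. DSG3 had 52.3, 53.3 and 51 FPKM with TGFbeta1, against 49.6, 43.7 and 49.1 FPKM in controls, and PERP had 253, 234 and 228 FPKM with TGFbeta1, against 218, 204 and 225 FPKM in controls. DSC3 had 29, 27.9 and 26.4 FPKM with TGFbeta1, against 26.3, 23.8 and 24.6 FPKM in controls. For DSP, DSG2, DSG3, DSC3 and PERP every TGFbeta1 library stood above every control, 5 of 10 members where 9.71% of all genes did, and for 0 members was the order the opposite, as it was for 9.62% of all genes. DSG2, DSC2, PKP1, PKP3 and JUP had log2 changes from -0.047 to 0.10. The members' median was 0.12, against -0.00031 over all genes. The summed FPKM of the 10 was 643 ± 8.55 with TGFbeta1 and 600.4 ± 16.6 in controls (SD, n = 3 each). In the authors' deposited table, 0 of the 22 member transcripts of this set had a q-value under 0.05, with a lowest q of 0.808, and 28 of 29204 transcripts did.

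The change with TGFbeta1 differed between the sets for 5 members, each with a second-set change above that of the first set. The interaction was called for 7.54% of all 10571 genes in this direction and 6.04% in the other. For DSP the second change minus the first was 0.83 on the log2 scale (SE 0.075, adjusted p = 5.3e-05), and for DSG3 it was 1.06 (SE 0.11, adjusted p = 0.000172). PKP2 differed by 1.38 (SE 0.37, adjusted p = 0.0338), but this call was lost in 8 of 12 fits without 1 library. PKP3 differed by 0.50 (adjusted p = 0.0145) and PERP by 0.46 (adjusted p = 0.0105), both lost under an equal FPKM sum per library. DSG2 (-0.041), DSC2 (0.12), DSC3 (0.026), PKP1 (0.15) and JUP (0.18) did not pass, and their intervals include 0. With transcripts limited to those in both tables, the same 5 differences were 0.83, 1.06, 1.38, 0.50 and 0.46 and stayed called, and 5 members were also called without a filter and with one at 5 FPKM. The sets' separate tables and their response to the agent cannot be told apart.

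**Figure D2:**
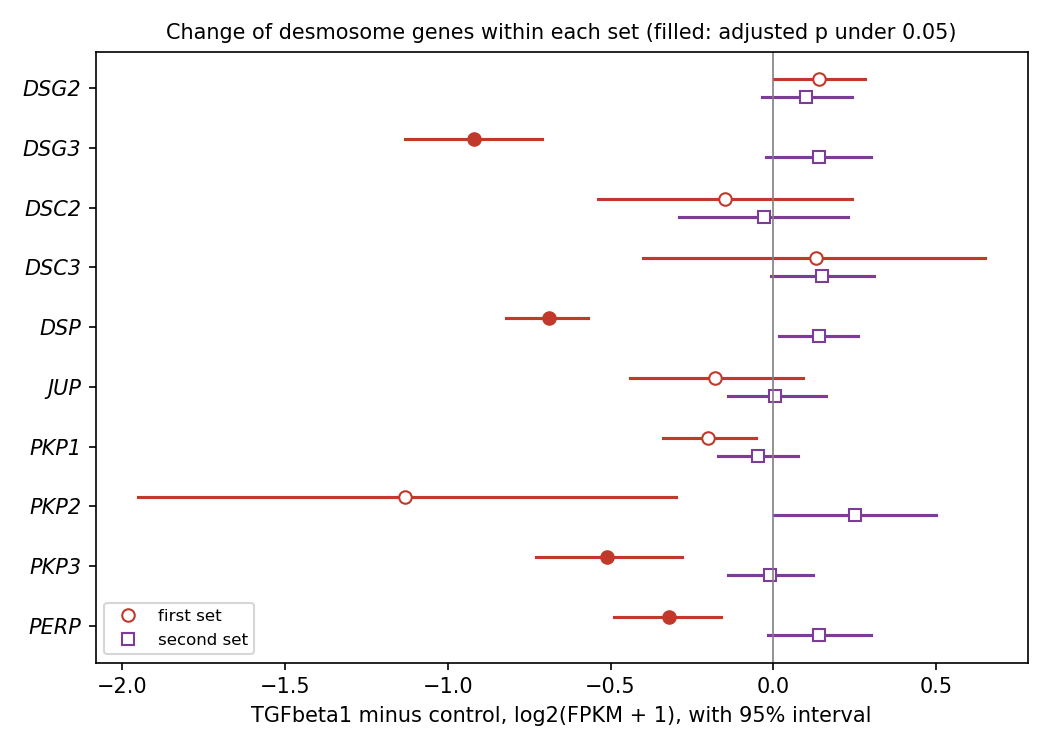
Log2 change, TGFbeta1 minus control, of each desmosome gene in both sets, with 95% intervals and a line at 0. In the first set 8 of 10 estimates lie under 0, with the whole intervals of DSP, DSG3, PKP1, PKP2, PKP3 and PERP, and filled points mark the 4 called, while in the second the estimates run from -0.047 to 0.25.

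**Figure D3:**
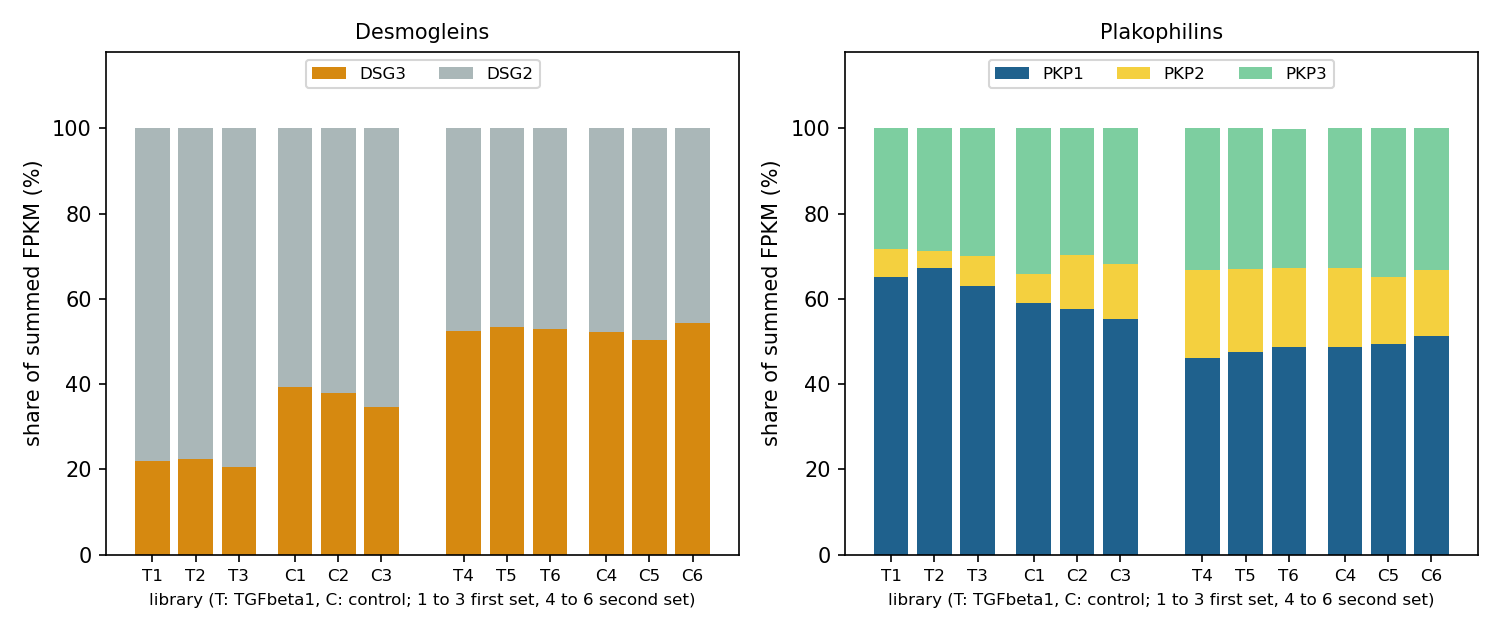
Shares in percent of each family's summed FPKM per library, as stacked bars, for DSG3 and DSG2 among the desmogleins and for PKP1, PKP2 and PKP3 among the plakophilins, TGFbeta1 left of control in each set. The DSG3 share is lower and the PKP1 share higher with TGFbeta1 in the first set.

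By level, PERP was the highest and DSC2 or PKP2 the lowest in all 4 groups of libraries. First-set controls had 231 to 259.9 FPKM of PERP, 174 to 201 of JUP, 145 to 153 of DSP and 84.3 to 91.3 of PKP1, and no neighbours in this stretch overlapped. DSG2 (51.2 FPKM) and PKP3 (49 FPKM) overlapped, as did PKP2, DSC3 and DSC2 at 16.7, 9.73 and 8.48 FPKM. With TGFbeta1 in the first set, DSG3 at 15.6 FPKM stayed below PKP3 at 34.1 FPKM and above DSC3 at 11.

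Single transcripts changed in the first set for DSG3-001 (log2 change -0.92, adjusted p = 0.0101) and for both DSP forms, 3 of 17 tested member transcripts, where 5.54% of all 18113 transcripts were called, 2.83% lower and 2.71% higher. With the replicate number as a block, 0 of these transcripts were called. Of 18 second-set transcripts 0 were called and 0 had an unadjusted p under 0.05, where 0.221% of all transcripts were called. FPKM within JUP and PKP2 was split otherwise in single libraries than in the rest of their group, and whether read assignment between similar transcripts does this was not tested. JUP-001 (JUP-201 in the second table) had 1.67, 42.7 and 45.7 FPKM with TGFbeta1, against 45.5, 45.7 and 48.2 FPKM in controls of the second set, while JUP-004 (JUP-202) had 37.4, 2.06 and 2.37 FPKM with TGFbeta1, against 0.00702, 0 and 1.34 FPKM in controls. In TGFbeta1 replicate 4 the form listed high is the other of the 2, and the gene sum of 82.7 FPKM is near the other libraries. PKP2-201 was listed at 7.57 FPKM in control replicate 5 and at most 0.0422 FPKM in the other second-set libraries, and PKP2-202 in that control was at 7.44 FPKM, against 14.8 and 18.1 FPKM in the other controls.

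**Figure D4:**
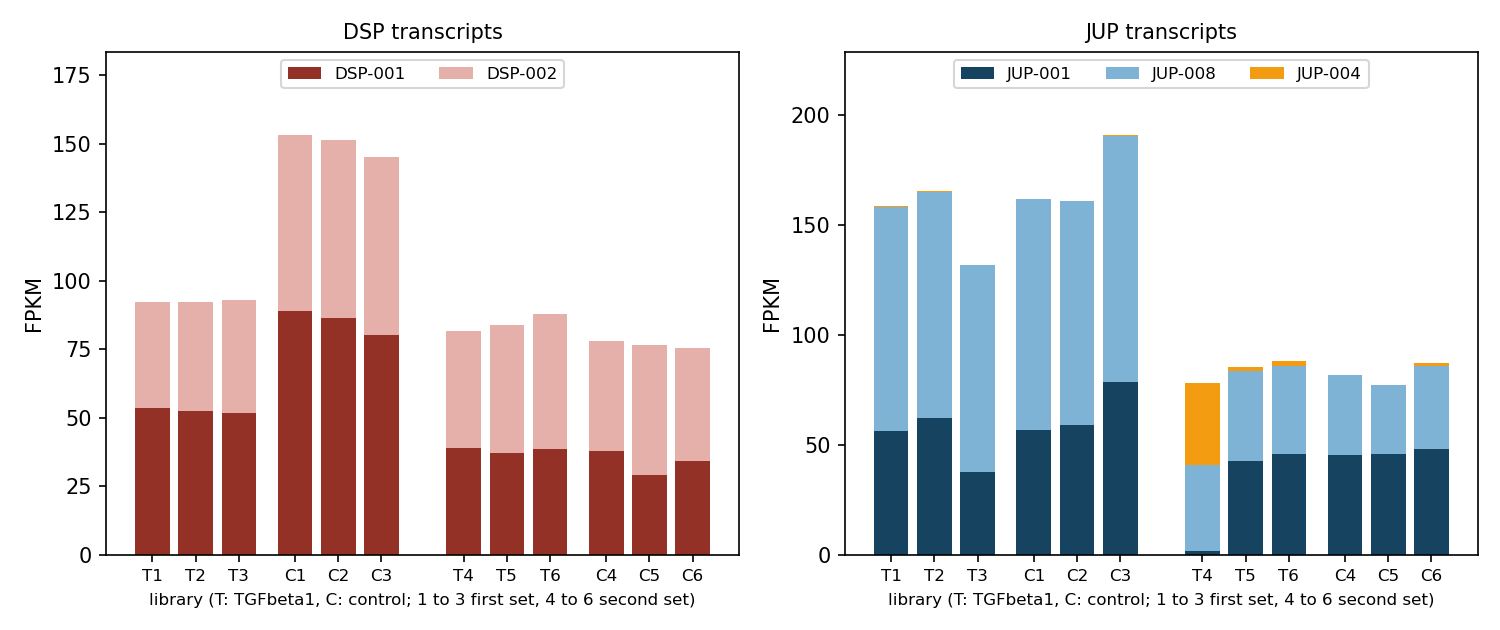
FPKM per library, as stacked bars, of DSP-001 and DSP-002 and of JUP-001, JUP-008 and JUP-004 in both sets, TGFbeta1 left of control. Both DSP forms are lower with TGFbeta1 in the first set, and JUP-001 and JUP-004 change places in TGFbeta1 replicate 4 of the second set.

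Genes around the desmosome were counted from lists chosen with earlier results of these data known. Of 6 tested partner proteins of the plaque and cornified envelope, 2 fell in the first set and 0 rose, where 11.9% of all genes fell and 9.0% rose. PPL, the plakin periplakin, had 2.75, 2.57 and 2.73 FPKM with TGFbeta1, against 25.8, 21.2 and 21.4 FPKM in controls (log2 change -2.69, adjusted p = 9.2e-05). EVPL, envoplakin, its partner in the cornified envelope, had 0.508 ± 0.0786 FPKM with TGFbeta1 and 3.59 ± 0.724 FPKM in controls (log2 change -1.59, adjusted p = 0.00127). KAZN and PKP4 did not pass, and DSG1 and DSC1 are not listed in the first table. PPL in the second set had 27.5 ± 8.25 FPKM with TGFbeta1 and 29.6 ± 1.06 FPKM in controls. There 0 of 5 partners were called, where 0.321% of all genes were.

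Of 14 keratins, which desmoplakin anchors, 8 fell, 1 rose and 5 did not pass in the first set, where 11.9% of all genes fell and 9.0% rose. The one that rose was KRT6A, at 1407 ± 49.6 FPKM with TGFbeta1 and 1208 ± 16.6 FPKM in controls. KRT16, a keratin of activated epidermis, had 32.6 ± 6.62 FPKM with TGFbeta1 and 322 ± 26.3 FPKM in controls (log2 change -3.28, adjusted p = 0.000176), and KRT15, a basal keratin, 2.61 ± 0.292 FPKM with TGFbeta1 and 81.8 ± 16.5 FPKM in controls (log2 change -4.50). KRT4 and KRT13 of mucosal epithelia fell by 4.42 and 7.65 on the log2 scale. The median over the 14 was -0.70. Of 13 second-set keratins 0 were called, where 0.321% of all genes were. The nearest was KRT6B at 41.1 ± 1.43 FPKM with TGFbeta1 and 28.8 ± 1.37 FPKM in controls (adjusted p = 0.0529).

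Of 11 adherens junction genes, 4 rose and 1 fell in the first set, where 9.0% of all genes rose and 11.9% fell. Their median was 0.069, against -0.055 over all genes. The one that fell was CTNND1, p120-catenin, at 31.6 ± 1.46 FPKM with TGFbeta1 and 38.4 ± 2.16 FPKM in controls (adjusted p = 0.0495), named after its value was seen. CDH1, E-cadherin, had 31.2, 19.2 and 31.2 FPKM with TGFbeta1, against 47.1, 39 and 42 FPKM in controls (log2 change -0.66, adjusted p = 0.0771), without overlap. CDH3, P-cadherin, had 169.7 ± 8.32 FPKM with TGFbeta1 and 79.3 ± 7.07 FPKM in controls (log2 change 1.09, adjusted p = 0.00089), and CDH2, N-cadherin, 2.12 ± 0.0311 FPKM with TGFbeta1 and 0.583 ± 0.131 FPKM in controls (log2 change 0.98). The nectins NECTIN1 and NECTIN2 rose by 0.36 and 0.41 on the log2 scale. Hemidesmosome and laminin genes, which fix basal cells to the matrix, rose in 7 of 8 cases in the first set, with a median of 1.03, and DST, a plakin of the hemidesmosome, fell. The laminin chains LAMA3 and LAMB3 rose by 2.21 and 2.05 on the log2 scale. COL17A1, a collagen of the hemidesmosome, had 296 ± 5.06 FPKM with TGFbeta1 and 148 ± 9.16 FPKM in controls (SD, n = 3 each). Second-set calls were 0 of 10 adherens junction genes and 0 of 8 hemidesmosome genes, where 0.321% of all genes were called.

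**Figure D5:**
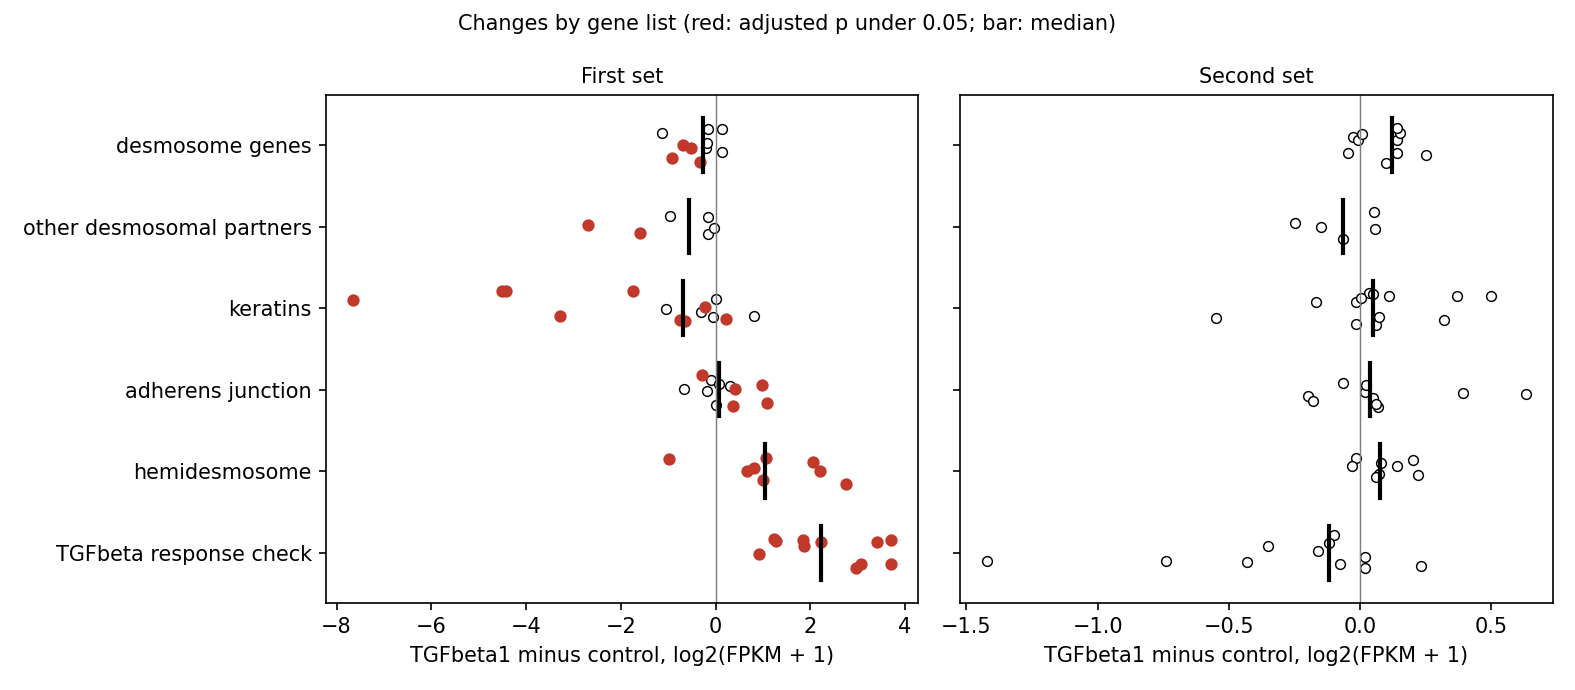
Log2 change, TGFbeta1 minus control, of tested genes by list, for both sets on their own scales. Drawn are the desmosome genes, their other partners, keratins, adherens junction, hemidesmosome and TGFbeta response genes. Regulators and sheddases are not drawn. Hemidesmosome genes lie mostly above 0 and keratins mostly below in the first set, with medians of 1.03 and -0.70.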

How the data were processed

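RNA of 6 TGFbeta1 and 6 control libraries was sequenced. Per the submitters' processing notes, FastQC, cutadapt, HISAT2 2.0.4, StringTie 1.2.3 and hg19 were used; for settings, strandedness and annotation release, none was given in the sources used here. FPKM values were deposited by the authors per protein-coding transcript, in 2 tables. The unit is named by the second table's group means, which equal the mean log2(FPKM + 1) of its library columns to within 5.0e-09. The first table's unit is inferred from its values. For the second table the authors also deposited log2 group means and log2 fold changes, linear fold changes, and a p-value and q-value per transcript by a test that is not named.

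Transcripts were summed per symbol (196 symbols renamed through shared transcript identifiers). Genes with a mean of at least 1 FPKM were tested within a set with limma 3.58.1 on log2(FPKM + 1) (trend, two-sided, Benjamini-Hochberg over all genes, called at adjusted p under 0.05). The interaction used all 12 libraries. FPKM divides by each library's total, so abundant genes shift the others, and the pseudocount of 1 understates changes of low genes. Members and lists were chosen with earlier results of these data known. All 10 members are named, and of each list the up to 4 smallest p of the first set and 2 of the second, though those that did not pass are mostly only counted, and some genes that this rule names are not reported here. Results were recomputed with a pseudocount of 0.1, without a filter or with one at 5 FPKM, 3 other scalings (median of ratios, equal sum, quantile), limma without trend or robust, each library left out, transcripts in both tables, and a replicate block. Same-numbered libraries deviated together only weakly (r 0.007 to 0.046, against -0.053 to 0.014 for other pairs). The main fits do not pair them, and the replicate block shows what pairing by number changes. The procedure was also run on simulated data. The outcome is not given here, and no result above rests on it.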

Additional observations from a re-analysis of the deposited data

Results flagged for a closer look

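The change with TGFbeta1 differed between the sets, by a test of the difference itself, for 5 of the 10 genes. Each had a second-set change above that of the first set, a direction called for 7.54% of all 10571 genes, against 6.04% in the other. The second-set change minus the first-set change was 0.83 on the log2 scale for DSP and 1.06 for DSG3. It was 1.38 for PKP2, 0.50 for PKP3 and 0.46 for PERP. All 11 tested TGFbeta response genes also differed between the sets, with a median of -3.50 in the same quantity, and their part in these differences was not tested.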

How the results depend on the processing

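DSP and DSG3 kept their first-set falls in all 16 alternatives (adjusted p 0.00078 to 0.0164 and 0.00163 to 0.0177) and their interaction in all 22. The members called in the first set were 4, and 2 to 4 without 1 library, with 2 without TGFbeta1 replicate 1 or 2. The members called for the interaction were 5, but 3 under an equal FPKM sum, and 4 to 5 without 1 library. With the replicate block, 3 members were called in the first set, 0 in the second and 4 for the interaction, and 0 first-set transcripts against 3, with 2 to 4 without 1 library; each TGFbeta1 library but replicate 3 correlated best with its own number. DSG2 was called higher in the first set under an equal FPKM sum (0.23, adjusted p = 0.0435). Signs turned only in values that no fit called. Without 1 library, DSC3 ranged from -0.094 (TGFbeta1 replicate 3) to 0.28 in the first set. DSC2 in the second set ranged from -0.083 to 0.053, PKP3 from -0.03 to 0.016 and JUP from -0.026 to 0.054. For the interaction DSC2 reached 0.27 and DSC3 0.25. In the second set DSC2 gave 0.015 and 0.053 without TGFbeta1 replicate 5 and control replicate 6, and PKP3 0.012 and 0.016 without TGFbeta1 replicate 6 and control replicate 5. JUP there gave -0.021 under an equal sum, -0.039 under quantile normalisation, and -0.0086, -0.026, -0.0066 and -0.0087 without TGFbeta1 replicates 5 and 6 and control replicates 4 and 5. For the interaction DSC2 gave -0.013 without control replicate 2, and DSC3 -0.027, -0.077 and -0.035 under median-of-ratios, equal-sum and quantile scaling, and -0.13, -0.039, -0.032, -0.004 and -0.0035 without TGFbeta1 replicates 1 and 2, control replicate 2, TGFbeta1 replicate 4 and control replicate 5. The cause was not tested. Over all genes, 2186 were called in the first set (941 higher, 1245 lower) but 1211 with the block and 1354 to 2030 without 1 library, and the split was 1164 higher and 855 lower under an equal sum; for the interaction it was 797 and 639, and 534 and 768 under an equal sum. In the second set 34 were called, 17 under an equal sum, 20 without trend, 0 with the block and 0 to 23 without 1 library. No counts were used, so what depth limits is unknown.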

Other observations

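Among 20 tested regulators and sheddases of desmosomes, 6 rose, 3 fell and 11 did not pass in the first set, with a median log2 change of 0.24. Over all genes tested 9.0% rose and 11.9% fell, with a median of -0.055. SRC, a tyrosine kinase whose activity loosens junctions, had 23.1 ± 0.643 FPKM with TGFbeta1 and 10.4 ± 0.199 FPKM in controls (log2 change 1.08, adjusted p = 0.000372, limma). PRKCA, the protein kinase C isoform that regulates desmosomal adhesion, had 4.85 ± 0.306 FPKM with TGFbeta1 and 2.84 ± 0.0288 FPKM in controls (log2 change 0.61, adjusted p = 0.00532). GRHL3, an epidermal transcription factor, fell by 1.46 (3.44 ± 0.0554 FPKM with TGFbeta1 and 11.3 ± 1.24 FPKM in controls; SD, n = 3 each). In the second set 0 of 20 were called, where 0.321% of all genes were. TWIST1, a mesenchymal transcription factor, there had 18.6 ± 1.11 FPKM with TGFbeta1 and 24.2 ± 1.02 FPKM in controls (adjusted p = 0.144).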
